A study of Caenorhabditis elegans with 4 samples.

Results

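miR-34, miR-238, miR-239a and miR-239b are 4 *C. elegans* microRNAs (miRNAs) known for roles in the stress response and ageing. They were chosen by name for these roles (cel-mir-34, cel-mir-238, cel-mir-239a and cel-mir-239b) from a count table that holds 148 names of miRNAs, and all 4 had counts. Whole L1-stage animals of 2 strains were sequenced for small RNA, with 2 libraries of *pry-1(mu38)* and 2 of the wild type N2. The Axin homolog PRY-1 is a scaffold that holds back WNT signaling, and the mutant strain carries its allele *mu38*. Both strains were grown on NGM plates at 20 degrees, synchronized by repeated bleaching and extracted as whole animals, so fewer cells of a type and less RNA per cell cannot be told apart. The study states that *pry-1* mutants grow more slowly than controls, and for qRT-PCR at L1 it grew the mutants for longer. Whether the sequenced strains differed in stage within L1 was not tested. The *pry-1* transcript itself cannot be checked in small RNA, and no label says whether the libraries of a strain came from separate cultures, so p-values measure only the spread between these libraries.

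A miRNA is cut from a hairpin precursor, and the arm that is loaded into an Argonaute protein guides it to messenger RNAs that pair with bases 2 to 8 of the miRNA, the seed. miRNAs with the same seed can share targets. In adult worms, loss of *mir-238* shortens life, loss of the *mir-239* locus lengthens it, and *mir-34*, a member of a family conserved up to mammals, takes part in the response to DNA damage and other stress. The animals here were larvae, and neither lifespan nor stress was measured in these libraries.

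The mature sequences that the study lists for the 4 names are shown to compare their seeds, with the seed in capitals.
miR-34: aCGGCUACcuucacugccaccc
miR-238: uUUGUACUccgaugccauucaga
miR-239a: aGUGUCUAgucuagugcaaaca
miR-239b: uUUGUACUacacaaaaguacug
miR-238 and miR-239b had the seed UUGUACU in common and were identical over their first 8 bases. Among the 161 sequences listed for known miRNAs, these 2 (1.24%) had that seed. The sequences listed for miR-34 and miR-239a had seeds that no other listed sequence carried. The list gives 1 sequence a name and does not say from which arm of the hairpin it comes, so the sequence shown for miR-34 or miR-239a may be the arm opposite the one its family is known by. The comparison of seeds therefore holds for the listed sequences only and does not show that these hairpins lack the seed of miR-239b. The rows of the table carry no arm either, so they are tied to these sequences only by name and by read total.

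The *mir-34* gene lies on chromosome X of WBcel235 (2969752 to 2969848, minus strand, WBGene00003262). *mir-238* lies on chromosome III (8867328 to 8867425, minus strand, WBGene00003331). *mir-239a* (11792445 to 11792542, plus strand, WBGene00003332) and *mir-239b* (11791302 to 11791399, minus strand, WBGene00003333) are neighbours on chromosome X, 1045 bp apart and transcribed away from each other. None of the 4 overlaps a protein-coding gene in the annotation. The nearest protein-coding gene was between 1559 bp away, *gbb-1* for *mir-34*, and 6971 bp away, *Y102F5A.1* for *mir-239b*.

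The columns of the count table were displaced against each other in stretches, so each member was checked against the read total that the study lists for its name. For miR-34 the second of its 2 rows met the total as deposited, with 11324 counts. For miR-238, the row as deposited held 11 counts in N2 replicate 2, against 28164 in N2 replicate 1. With the N2 replicate 2 value of the next row, 36901, the sum of 108058 met the total, and 1 of the 343 combinations of rows within reach did so. The same displacement of 1 row in N2 replicate 2 met the totals of miR-239b and of the next miRNAs of the table, miR-240 and miR-241. For miR-239a, 1 of 686 combinations met the total. It used that displacement and, for *pry-1(mu38)* replicate 1, the count of 23 from the other row with this name, since its own row holds 0. For miR-239b, 3 combinations met the total, with 2 sets of values, and the set with the displacement of its neighbours was used. As deposited, the 36901 counts of N2 replicate 2 stand in the first row named miR-239a, where N2 replicate 1 holds 9.

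Library totals were 3284425 and 4651818 counts in *pry-1(mu38)* replicates 1 and 2, against 6651178 and 6491918 counts in N2 replicates 1 and 2. Levels are given as CPM, counts per 1000000 counts of a library after its total was multiplied by its TMM factor, and the 4 sequences were 22 or 23 nt long. *pry-1(mu38)* replicate 2 stood apart by lin-4, a miRNA that accumulates as L1 proceeds. lin-4 had 27.5 and 721 CPM in *pry-1(mu38)* replicates 1 and 2, against 17.4 and 19.1 CPM in N2. The log2 fold change of each of the 4 miRNAs is therefore also given without this library. Whether the stage within L1 or another cause set the lin-4 level of this library was not tested. The study reports lin-4 as raised in this mutant at L1, by sequencing and by qRT-PCR.

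miR-238 was the most abundant of the 4, and it held the same place among the 84 placed miRNAs in all 4 libraries, the 16th. Such ranks leave out the names that were not placed, some of which held more counts. A row of miR-35, for example, held 75470 counts in N2 replicate 1. It had 17847 and 25146 counts in *pry-1(mu38)* replicates 1 and 2, against 28164 and 36901 counts in N2 replicates 1 and 2. After scaling these were 6205 and 4906 CPM in *pry-1(mu38)*, against 4620 and 5027 CPM in N2. The strains overlapped, since the second mutant library lay between the N2 libraries. The means were 5556 ± 919 CPM in *pry-1(mu38)* and 4823 ± 288 CPM in N2 (SD, n = 2 libraries each). The replicates differed by 1.26-fold in *pry-1(mu38)* and 1.09-fold in N2, against medians over the 83 tested miRNAs of 1.43-fold and 1.24-fold. In edgeR's quasi-likelihood test, miR-238 differed by 0.20 on the log2 scale (*pry-1(mu38)* over N2, standard error 0.35), with a Benjamini-Hochberg adjusted p of 0.904. Its 95% interval ran from -0.63 to 1.04, which is from 0.647-fold to 2.05-fold. Without *pry-1(mu38)* replicate 2 the log2 fold change of miR-238 was 0.00 (0.00395), and with each other library left out it lay between 0.07 and 0.27.

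miR-34 came next. The row that met its total had 2207 and 1760 counts in *pry-1(mu38)* replicates 1 and 2, against 3589 and 3768 counts in N2 replicates 1 and 2. These were 767 and 343 CPM in *pry-1(mu38)*, against 589 and 513 CPM in N2. Both the highest and the lowest level were mutant libraries, with N2 between them. It ranked 30th and 38th among the 84 miRNAs in *pry-1(mu38)*, and 31st and 32nd in N2. The means were 555 ± 300 CPM in *pry-1(mu38)* and 551 ± 53.3 CPM in N2 (SD, n = 2 each). The mutant libraries were 2.23-fold apart, the 14th largest spread of the 83 tested miRNAs, whereas the N2 libraries were 1.15-fold apart. edgeR put the log2 fold change at 0.01 with a standard error of 0.49 (adjusted p = 0.983) and a 95% interval from -1.16 to 1.18. In folds the interval ran from 0.447-fold to 2.27-fold. Without *pry-1(mu38)* replicate 2 the log2 fold change of miR-34 was 0.12, and without replicate 1 it was -0.63.

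miR-239a was scarce, at ranks 74 and 74 in *pry-1(mu38)* and 70 and 68 in N2. It had 23 and 52 counts in *pry-1(mu38)* replicates 1 and 2, against 81 and 120 counts in N2 replicates 1 and 2. These were 7.997 and 10.1 CPM in *pry-1(mu38)*, against 13.3 and 16.3 CPM in N2. Both mutant libraries lay below both N2 libraries. That was true of 12 of the 83 tested miRNAs, or 14.5%. The means were 9.07 ± 1.52 CPM in *pry-1(mu38)* and 14.8 ± 2.16 CPM in N2 (SD, n = 2 each). edgeR put the log2 fold change at -0.70 with a standard error of 0.38 (adjusted p = 0.505). It was the fourth lowest of the 83, and its 95% interval from -1.60 to 0.20 included no change. The count of 23 has an exact 95% Poisson interval from 14.6 to 34.5 counts, which covers counting error only. Without *pry-1(mu38)* replicate 2 the log2 fold change was -1.25, and with each other library left out it lay between -0.84 and -0.50.

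miR-239b was the scarcest of the 4, and its replicates differed most. It had 5 and 54 counts in *pry-1(mu38)* replicates 1 and 2, against 21 and 71 counts in N2 replicates 1 and 2. These were 1.74 and 10.5 CPM in *pry-1(mu38)*, against 3.44 and 9.67 CPM in N2. Replicate 2 was the higher library in both strains, by 6.06-fold in *pry-1(mu38)* and 2.81-fold in N2. The means were 6.14 ± 6.22 CPM in *pry-1(mu38)* and 6.56 ± 4.40 CPM in N2 (SD, n = 2 each). The spread between replicates was the third largest of the 83 tested miRNAs in each strain. The count of 5 is the smallest nonzero value in the whole table, and its exact 95% Poisson interval ran from 1.62 to 11.7 counts. edgeR put the log2 fold change at -0.04 with a standard error of 0.81 (adjusted p = 0.981) and a 95% interval from -1.98 to 1.89. Without *pry-1(mu38)* replicate 2 it was -2.29, without *pry-1(mu38)* replicate 1 it was 0.70, and without N2 replicate 2 it was 0.87, so the direction changed with the library left out.

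**Figure D1:**
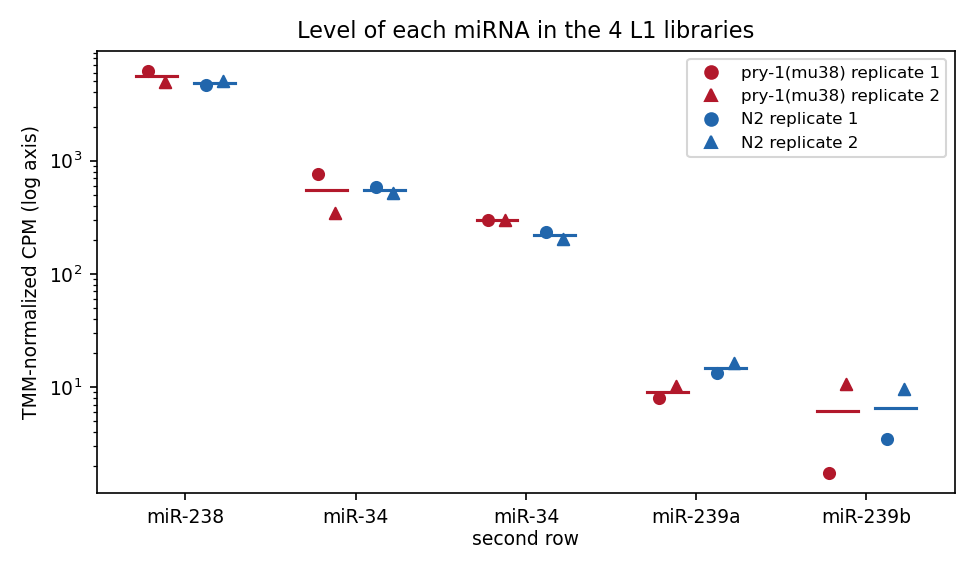
TMM-normalized CPM on a log axis for each miRNA in the 4 L1 libraries, with circles for replicate 1, triangles for replicate 2 and a bar for the mean of each strain (n = 2). miR-238 lies between 4620 and 6205 CPM and miR-239b between 1.74 and 10.5 CPM. Of the rows that met a listed total, that of miR-239a alone has strains that do not overlap under this scaling. The other row named miR-34 (second row), read by position alone, has both mutant libraries above both N2 libraries.

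The order of the 4 within a library was miR-238, miR-34, miR-239a and miR-239b in 3 of the 4 libraries. In *pry-1(mu38)* replicate 2 miR-239b, with 54 counts, lay above miR-239a, with 52, and these 2 counts agree within counting error. miR-238 exceeded miR-239b, which has the same seed, by 3569-fold and 466-fold in *pry-1(mu38)*, against 1341-fold and 520-fold in N2. The 3569-fold ratio rests on 5 counts of miR-239b, whose Poisson interval from 1.62 to 11.7 counts leaves this ratio loosely fixed. Of the counts under the 2 names listed with the seed UUGUACU, nearly all were thus of miR-238 in both strains. The neighbours miR-239a and miR-239b did not keep a fixed ratio. There were 4.60 and 0.963 counts of miR-239a per count of miR-239b in *pry-1(mu38)*, against 3.86 and 1.69 in N2. Replicate 2 had the lower ratio in both strains.

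By edgeR, 0 of the 4 members passed an adjusted p of 0.05 between the strains, and 0 passed an unadjusted p of 0.05. Across the 83 miRNAs, 0 (0%) passed the adjusted and 10 (12%) the unadjusted threshold. DESeq2's Wald test and edgeR's exact test each called 3 of the 83, lin-4, miR-237 and miR-246, and neither called a member. The median log2 fold change of the members was -0.02, beside a median of 0.17 over all 83 miRNAs. These values do not show that the strains are alike. The narrowest interval of the 4 on the log2 scale, that of miR-238, still includes a 2.05-fold difference.

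**Figure D2:**
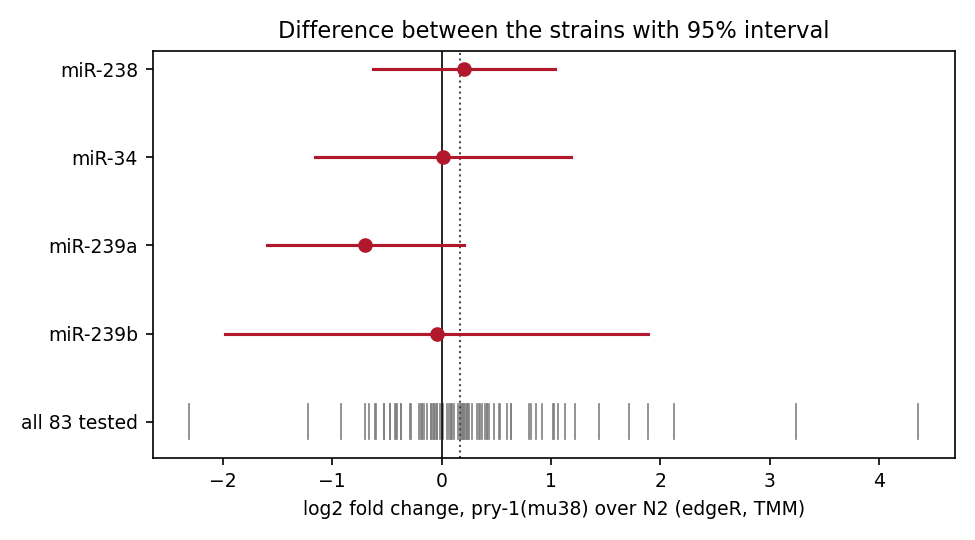
Log2 fold change of *pry-1(mu38)* over N2 with its 95% interval for the 4 members (points and bars), above a tick for each of the 83 tested miRNAs, with a dotted line at their median of 0.17. All 4 intervals include 0.

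The fitted values moved with the scaling. That of miR-34 was above 0 with TMM and below 0 with the other 3 scalings, and that of miR-238 was below 0 with upper-quartile factors. The median over all tested miRNAs was 0.17 with TMM, 0.12 with library totals alone, 0.05 with DESeq2's size factors and -0.18 with upper-quartile factors. Relative to that median the members moved less. A change of scaling moves all miRNAs by a similar amount, so this largely follows from the subtraction and is no sign of stability. miR-238 stood between 0.00448 and 0.04 from it on the log2 scale, and miR-34 between -0.26 and -0.16. miR-239b stood between -0.21 and -0.06 from the median, and miR-239a between -0.87 and -0.82. Both mutant libraries were below both N2 libraries for miR-239a under all 4 scalings. So were 14.5% of the tested miRNAs with TMM, 18.1% with library totals alone and 22.9% with DESeq2's size factors. With upper-quartile factors this was true of miR-34 as well, and of 31.3% of the tested miRNAs.

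**Figure D3:**
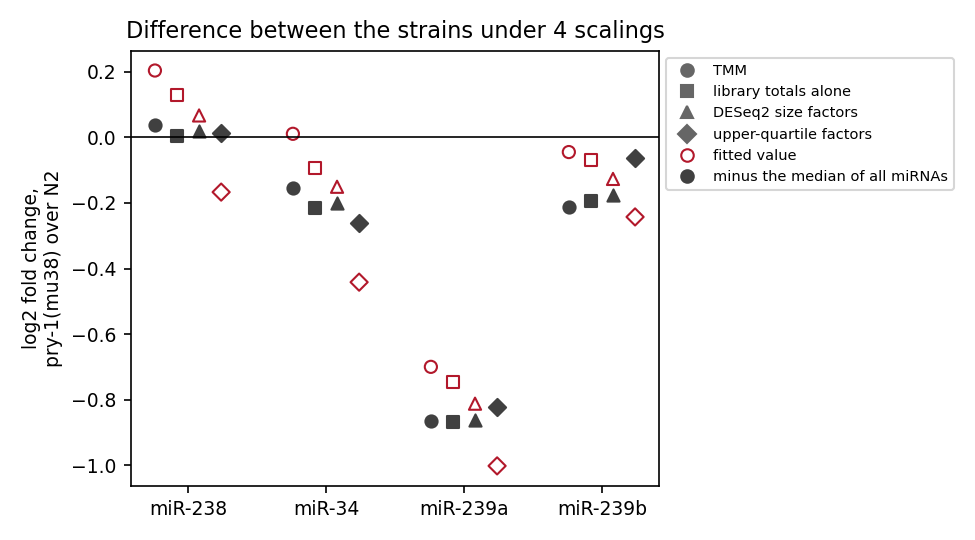
Log2 fold change of *pry-1(mu38)* over N2 under 4 scalings, as fitted (open red symbols) and after subtracting the median of all tested miRNAs (filled symbols). Relative to the median, which takes out most of the effect of a scaling, miR-239a lies between -0.87 and -0.82. The sign of miR-34 changes only as fitted.

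A second row of miR-34, the first with its name, was read for all 4 libraries. The row lies between placed rows without displacement, but no total is listed for it. Such a position can mislead. The first row of miR-35, which also lies so, held 24181 counts in *pry-1(mu38)* replicate 2, against 7 in replicate 1. The values of the second row of miR-34 therefore rest on position alone. This row of miR-34 had 853 and 1519 counts in *pry-1(mu38)* replicates 1 and 2, against 1428 and 1486 counts in N2 replicates 1 and 2. These were 297 and 296 CPM in *pry-1(mu38)*, against 234 and 202 CPM in N2. In this row the mutant libraries agreed closely and lay above both N2 libraries, as was true of 32.5% of the 83 tested miRNAs. The ratio of the row that met the total to the second row was 2.59 and 1.16 in *pry-1(mu38)*, against 2.51 and 2.54 in N2. The 2 rows thus kept one ratio in 3 libraries and not in *pry-1(mu38)* replicate 2. Among 33 hairpins with 2 such rows of at least 10 counts in every library, miR-34 had the most stable ratio in N2, 1.01-fold apart, against a median of 1.20-fold. In *pry-1(mu38)* its ratios were 2.23-fold apart, the 9th largest, against a median of 1.60-fold, and 11 of the 33 differed by more than 2-fold. Relative to the mean of the other 3 libraries, the ratio in *pry-1(mu38)* replicate 2 was off by 2.197-fold, the 5th largest of the 33 in either direction. Summed over both rows, miR-34 had 1064 and 640 CPM in *pry-1(mu38)*, against 823 and 716 CPM in N2. With the sum in place of the single row, its log2 fold change over all 4 libraries was 0.15 (adjusted p = 0.912, edgeR).

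**Figure D4:**
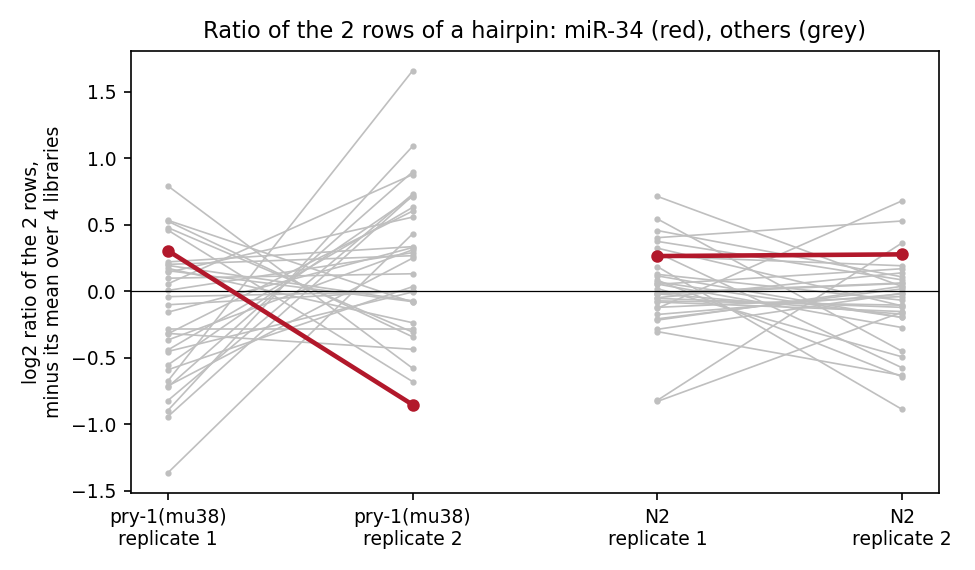
Log2 ratio of the row that was placed by its total to the other row of the same name, minus its mean over the 4 libraries, for miR-34 (red) and 32 other hairpins (grey), with lines joining the 2 libraries of a strain. The ratio of miR-34 is low in *pry-1(mu38)* replicate 2 alone, and ratios in *pry-1(mu38)* differ more between replicates than in N2, with medians of 1.60-fold and 1.20-fold.

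The first row named miR-239a held 26 counts in *pry-1(mu38)* replicate 2 and 9 in N2 replicate 1. At the displacement of its neighbours it would hold 23 counts in *pry-1(mu38)* replicate 1 and 25 in N2 replicate 2. The 23 counts are those that met the total of miR-239a with the other row, so no ratio is given. The 11 counts of N2 replicate 2 in the row of miR-238 belong to no listed total and were not used.

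miRNAs with the most similar pattern over the 4 libraries were sought among the other 82 tested miRNAs, by the root mean square difference of log2 CPM after subtracting each miRNA's mean. Nearest to miR-34 were miR-245 (0.155), miR-242 (0.163) and miR-790 (0.165), against a median of 0.490. Nearest to miR-238 were miR-248 (0.0488), miR-54 (0.0725) and miR-787 (0.0787). miR-239a was nearest to miR-4805 (0.0534), miR-236 (0.213) and miR-1829b (0.253). miR-239b had no close match, and its nearest were miR-788 (0.542), miR-70 (0.680) and miR-1 (0.770). No member was among the 3 nearest of another. miR-239a and miR-239b, neighbours in the genome, were 0.913 apart. With 4 libraries, such likeness only describes them.

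Another 8 miRNAs known for ageing or stress were placed and tested, lin-4, miR-60, miR-71, miR-80, miR-83, miR-124, miR-228 and miR-246. In edgeR's quasi-likelihood fit of all 4 libraries, 0 of the 8 passed the adjusted threshold and 2 the unadjusted one, lin-4 and miR-246, beside 12% of all tested miRNAs. DESeq2's Wald test and edgeR's exact test called both at an adjusted p of 0.05, and edgeR's robust option called miR-246. By sequencing, the study reports miR-246 as lowered in this mutant at L1, and it describes similar but smaller trends by qRT-PCR. Without *pry-1(mu38)* replicate 2, edgeR put lin-4 at a log2 fold change of 0.23, against 4.36 with it, and miR-246 at -2.57. That library was singled out by its lin-4 level, so the fall of lin-4 follows from the choice and tests nothing. The median log2 fold change of the 8 was 0.44, beside 0.17 over all 83, and without that library it was 0.03, beside -0.09 over the 84 then tested. The values that follow are of all 4 libraries. In 4 of the 8 both mutant libraries lay above both N2 libraries, beside 32.5% of all tested. In 1, miR-246, both lay below, beside 14.5% of all tested. miR-246, which promotes long life, had 66.8 and 59.1 CPM in *pry-1(mu38)*, against 386 and 238 CPM in N2 (log2 fold change -2.31, adjusted p = 0.114, edgeR). miR-71, which acts in neurons to lengthen life, had 17217 and 8708 CPM in *pry-1(mu38)*, against 7439 and 9217 CPM in N2, which overlap (adjusted p = 0.578, edgeR). miR-60, linked to oxidative stress, had 331 and 446 CPM in *pry-1(mu38)*, against 160 and 286 CPM in N2, with a log2 difference of 0.80 and a standard error of 0.45 (adjusted p = 0.539, edgeR). miR-83, linked to the decline of autophagy with age, had 87.3 and 90.3 CPM in *pry-1(mu38)*, against 47.7 and 75.5 CPM in N2 (log2 fold change 0.53, adjusted p = 0.661, edgeR). miR-124, a neuronal miRNA, had 24.3 and 33.0 CPM in *pry-1(mu38)*, against 32.5 and 30.7 CPM in N2, which overlap (adjusted p = 0.923, edgeR). miR-238 thus stood below miR-71 in every library, and miR-34 stood above miR-60 in 3 of the 4 libraries, the exception being *pry-1(mu38)* replicate 2.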

How the data were processed

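Small RNA of L1 animals was counted on known miRNAs. The authors deposited raw counts per miRNA row, without normalization, from reads that matched precursors annotated in miRBase for WBcel235. BWA and DESeq are named in the submitters' processing notes. Adapter trimming and the counting of reads shared by several miRNAs are not given in the sources used here. Reads carry no molecular identifiers, so intervals on counts cover counting error only. 0 columns had no sample.

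Members, lists and the placement rule were chosen with earlier results of these data known. Counts of N2 replicate 1 kept their row, and each other library's count was looked for within 3 rows of it until the sum met the listed read total. A displaced match was accepted by itself from 1000 reads if a single combination met the total and none came within 10 reads of it. Other matches needed the displacement of a neighbour, or of both neighbours under 100 reads. Sums within 0.1% were accepted from 1000 reads at a neighbour's displacement, and 1 library could use another row of the same name if its own held 0. Of 126 listed names, 85 were placed, 30 of them by an exact match of the row as deposited, and 41 were not. In simulated displaced tables, 87.3% of names were placed and 0% of these wrongly. The simulated counts held no zeros and their totals were exact. The use of another row of the same name, which placed miR-239a, was therefore not tested by them.

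miR-45, identical to miR-44, was entered once, which left 84 miRNAs with between 89.7% and 91.1% of each library's counts. Counts were tested with edgeR 4.0.16 in R 4.3.3 (filterByExpr with a minimum of 10 counts, TMM, glmQLFit and glmQLFTest on all 4 libraries without covariates, Benjamini-Hochberg adjustment over 83 miRNAs, two-sided). The standard error is the log2 fold change divided by the square root of F, and the 95% interval uses the test's degrees of freedom. TMM factors were 0.876 and 1.10 for *pry-1(mu38)* replicates 1 and 2, and 0.917 and 1.13 for N2 replicates 1 and 2. In counts simulated for 84 miRNAs with 20 changed 4-fold, 64.8% of the changed miRNAs were recovered at the spread of these libraries, and 2.64% of calls were wrong. An exact permutation test of 2 libraries against 2 cannot give a p below 0.333 and was not used. Alternatives changed the scaling, filter, test (DESeq2 1.42.0), replicate block, rows and libraries, and 2 of them, another neighbour rule and the sum of both miR-34 rows, were added after seeing the data. The named miRNAs were the 4 members, the 3 nearest patterns of each and 8 others known for ageing or stress. Gene positions are those of Ensembl's WBcel235 annotation, the build named in the methods.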

Additional observations from a re-analysis of the deposited data

How the results depend on the processing

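None of the 4 members passed an adjusted p-value of 0.05 under an alternative that tested it. miR-239b, with 5 counts in *pry-1(mu38)* replicate 1, was not tested where at least 10 counts were required in every library. Of all miRNAs tested, 0 passed with the main settings, 3 with DESeq2's Wald test, 3 with edgeR's exact test and 1 with the robust option. Between 2 and 8 passed without one library in turn, 8 without *pry-1(mu38)* replicate 1, where the lone library of a strain is assumed to vary like the other strain. With the replicate number as a block, 0 passed. Equal numbers are not described as shared cultures, and the deviations of such libraries from their strain's mean had a correlation of 0.308 over 83 miRNAs.

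The log2 fold change of miR-34, 0.01 as reported, was -0.09 (-0.0929) with library totals alone, -0.15 with DESeq2's size factors, -0.44 with upper-quartile factors, -0.15 with DESeq2's Wald test, -0.10 (-0.0985) with the replicate block, -0.29 with rows as deposited, -0.27 with the wider table, which adds rows between placed neighbours and holds the 23 counts of *pry-1(mu38)* replicate 1 in both rows of miR-239a, -0.21 without the most abundant miRNA in the library sizes and -0.21 with rows placed by 1 neighbour. Without one library in turn it ranged from -0.63 to 0.12. That of miR-238, 0.20 as reported, was -0.17 with upper-quartile factors and -0.02 (-0.0201) with the wider table. With rows as deposited it was 1.19, because the row held 11 counts in N2 replicate 2. That of miR-239b ranged from -2.29 to 0.87 without one library in turn. miR-239a kept its direction under every alternative, from -1.25 to -0.50. For changes other than those of the rows, the cause was not tested.

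The mean level over the 4 libraries was 553 CPM for miR-34, 5190 CPM for miR-238, 11.9 CPM for miR-239a and 6.35 CPM for miR-239b. Summed over all rows with the name as deposited, it was 811 CPM for miR-34, 3933 CPM for miR-238 and 1267 CPM for miR-239a. The counts of miR-239a and miR-239b were 120 at most in any library. The standard error of the log2 fold change was 0.38 for miR-239a, beside 0.35 for miR-238 and 0.49 for miR-34, and 0.81 for miR-239b.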
